A study of Mus musculus with 4 samples.

Results

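Ionotropic and metabotropic glutamate receptor genes and the genes of their auxiliary subunits were followed through single nuclei of the adult mouse hippocampus. The set holds 38 genes, listed by symbol and found by their Ensembl identifiers among the 55422 genes of the deposited tables. It comprises 4 AMPA receptor genes, 5 kainate receptor genes, 7 NMDA receptor genes, 1 delta receptor gene, 6 metabotropic receptor genes, 6 TARP genes, 2 Neto genes and 7 other auxiliary or scaffold genes. All 38 were found. The rule lists them by symbol with no measured value in it, but the list was drawn up with earlier results of these data known. Nuclei came from 2 Control libraries of Kat6a-f/f mice, which carry loxP-flanked Kat6a alleles, and from 2 Kat6a-cKO libraries, in which NEX-cre was combined with Kat6a-f/f. Both groups therefore carried the floxed alleles, and only the Kat6a-cKO mice carried Cre. NEX-cre places Cre at the Neurod6 locus, so that it acts in forebrain excitatory neurons and their precursors, and much less in interneurons and glia. KAT6A is a histone acetyltransferase, and the title of the study names Rspo2, Wnt signalling and CA3. Nothing in the labels says whether a library is 1 animal or a pool. The p-values therefore weigh a difference against the spread between these libraries, not against a known spread between animals. In the edgeR fits that spread was estimated in part from all genes together.

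AMPA, kainate and NMDA receptors are tetrameric ion channels opened by glutamate. AMPA receptors carry most fast excitatory transmission, NMDA receptors admit calcium when the membrane is depolarised, and kainate receptors act on both sides of the synapse, best known at the mossy fibre synapse onto CA3. Metabotropic receptors couple to G proteins, the group I receptor mGluR5 mostly after the synapse and the group II and III receptors mostly on terminals and, for mGluR3, on glia. TARPs, cornichons, Shisa proteins and GSG1L bind AMPA receptors and set their trafficking and kinetics, and the Neto proteins do the same for kainate receptors. Which subunits a neuron makes decides the calcium permeability and kinetics of its synapses.

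Libraries held between 171323466 and 186897245 counts, and between 7911 and 8442 barcodes per library had at least 5000 UMIs. Pairs of libraries shared 15 to 20 of those barcodes. Nuclei were clustered without the 38 genes, and each class was named from its markers, so "CA3" below stands for CA3-like nuclei and so on for every class. At least 3 markers were raised at least 2-fold in every class, for example 7 of 8 in CA3 and 6 of 7 in mossy nuclei of the dentate hilus. Per library, CA3 had 571 to 828 nuclei, CA1 1625 to 1923, dentate granule neurons 2684 to 3386, and mossy nuclei 30, 51, 50 and 51. Free RNA made up an estimated 1.86% to 6.87% of counts in the neuron classes and 26.9% to 44.5% in glia. The glial estimate was too high for Grin2a, Grin2b, Grm8 and Grm3. Their levels in oligodendrocyte precursors (OPC) and microglia lay below what it would give in every library. In CA3 the cre transgene was counted 0 times in each Control library, and 40 and 54 times in the Kat6a-cKO ones, which matches the labels. Neurod6 stood at 70.5 and 61.3 CPM in Control CA3 and at 51.6 and 42.3 CPM in Kat6a-cKO CA3. Its log2 fold change by edgeR was -0.49 in CA3 (adjusted p of 0.203), -0.88 in granule neurons (0.0417) and -0.16 in mossy nuclei (0.892). Cre and the Neurod6 allele go with the genotype, and their part in the differences below was not tested. Kat6a itself was at 64.4 and 63.7 CPM in Control CA3 and at 60.3 and 64.9 CPM in Kat6a-cKO CA3. In mossy nuclei Kat6a was at 50.2 and 61.1 CPM in Control and at 64.2 and 66.8 CPM in Kat6a-cKO, a log2 fold change of 0.21 with an adjusted p of 0.831 by edgeR. The counts cover the whole gene and the labels do not give the deleted part, so these levels do not check the deletion. The share of counts on ribosomal protein genes was lower in both Kat6a-cKO libraries than in both Control libraries in all 12 classes compared, at 0.161% and 0.172% against 0.145% and 0.140% in CA3; its part in the differences given below was not tested.

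Levels are given first, as CPM, the counts of a gene scaled to a fixed total of counts in its class, in each library. They describe the classes and were not tested between them. In nuclei, long genes collect more intronic reads, and the 38 genes span 5.65 to 922 kb, so levels are compared between classes for 1 gene and not between genes. Of the 38 genes, 26 were highest in 1 of 12 classes with every library above every library of the class ranked next. Rankings below are over these 12 classes, with the inhibitory neurons pooled, unless interneuron types are named.

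**Figure D1:**
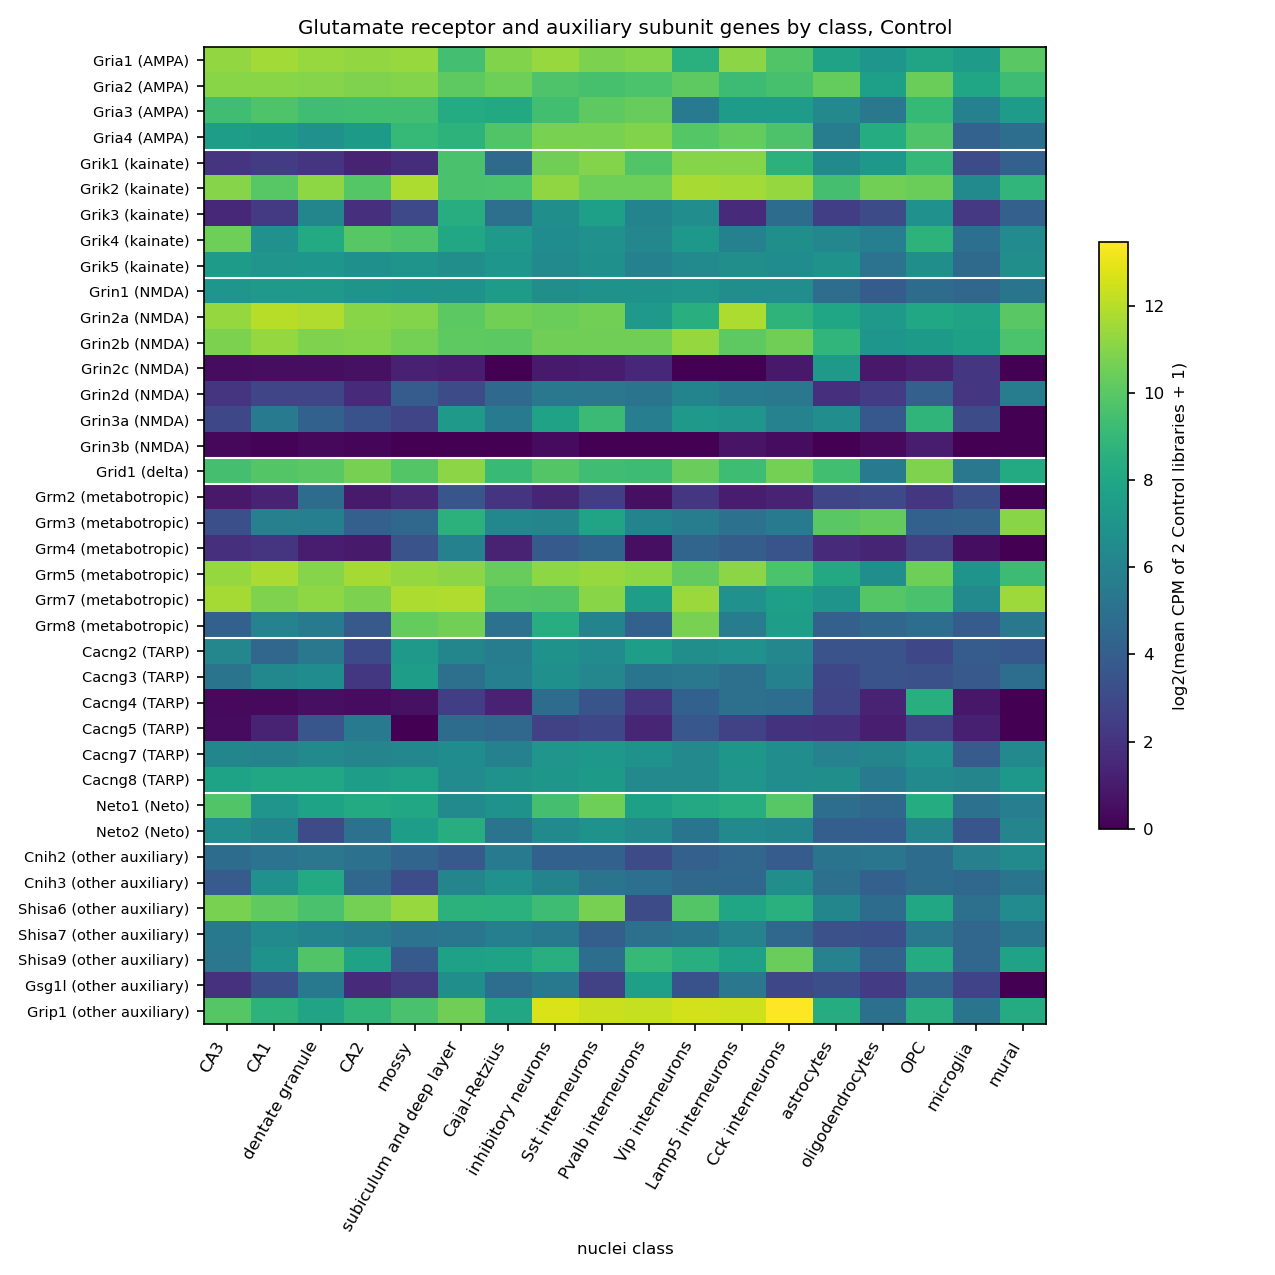
Rows are the 38 genes with their family in brackets and columns are the 18 nuclei classes, with the inhibitory neurons shown together and by type. Colour is log2 of the mean CPM of the 2 Control libraries plus 1, so a row may be read across classes: Grik1 is dark in CA3, CA1, dentate granule, CA2 and mossy nuclei and bright in inhibitory neurons, and Grm8 is bright in mossy, subicular and Vip nuclei.

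The AMPA subunit gene Gria2, whose edited protein makes the channel nearly impermeable to calcium, had similar levels in the pyramidal classes. Gria2 stood at 2187, 2108, 2076 and 2040 CPM in CA1 of Control 1, Control 2, Kat6a-cKO 1 and Kat6a-cKO 2, the order used for every set of 4 values. In CA3 the Gria2 levels were 2177, 2076, 2120 and 1999 CPM, which overlapped those of CA1. Inhibitory neurons had less Gria2, with a Control mean of 864 ± 7.34 CPM (SD, n = 2). Their Gria1 levels of 2743, 2675, 2491 and 2347 CPM overlapped those of granule neurons. Gria4, a subunit known from fast-spiking interneurons, showed the opposite order. Gria4 stood at 1681, 1734, 1666 and 1673 CPM in inhibitory neurons, 1943, 1862, 1820 and 1598 CPM in Pvalb interneurons, and a Control mean of 161 CPM in CA1. OPC were the glial class with the most Gria4, at 854, 856, 918 and 869 CPM. Vip interneurons had little Gria1 and Gria3, with Control means of 368 CPM and 45.3 CPM against 2709 CPM and 662 CPM over all inhibitory nuclei.

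Of the kainate receptor genes, Grik4, which encodes the high-affinity subunit GluK4, stood at 1427, 1427, 1405 and 1395 CPM in CA3. The next classes were CA2 with 975, 1034, 920 and 905 CPM and mossy nuclei with 842, 880, 891 and 785 CPM, whereas CA1 had a Control mean of 110.3 CPM. CA3 was above CA2 in every library. Grik5, the other high-affinity subunit gene, was also highest in CA3, at 162, 168, 157 and 166 CPM, with granule neurons next at 136, 131, 132 and 129 CPM. Grik2, which encodes the low-affinity subunit GluK2, was highest in mossy nuclei, at 3396, 3728, 3994 and 3541 CPM, against 2082, 1990, 2008 and 1980 CPM in CA3. Grik1 was near 0 in the main principal neuron classes, though not in the subicular one, with Control means of 3.05 CPM in CA3, 4.28 CPM in CA1 and 3.23 CPM in granule neurons. In inhibitory neurons Grik1 reached 1449, 1550, 1680 and 1422 CPM. Grik3 was highest in the subicular and deep-layer neurons, at 348, 324, 357 and 363 CPM, and had a Control mean of 1.83 CPM in CA3.

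The NMDA receptor genes differed by class mainly in the GluN2 and GluN3 subunits. Grin1, the obligatory subunit gene, had Control means between 99.4 CPM in inhibitory neurons and 166 CPM in Cajal-Retzius neurons among the neuron classes other than the interneuron types. The Cajal-Retzius class held only 34, 23, 23 and 22 nuclei, at median depths of 6049 to 6587 UMIs. With the minimum raised to 8000 UMIs it held 73, 61, 61 and 43 nuclei, so its levels are uncertain. Grin2a was highest in CA1, at 4035, 4141, 3700 and 4036 CPM, followed by granule neurons at 3710, 3663, 3581 and 3674 CPM, and these overlapped. Pvalb interneurons had 137, 161, 145 and 145 CPM of Grin2a, and Lamp5 interneurons had 3294, 3887, 3705 and 3556 CPM. Grin2c belonged to astrocytes, with 165, 135, 159 and 173 CPM there and at most 4.26 CPM in any library of the other 11 classes compared. Grin2d was highest in inhibitory neurons, with a Control mean of 40.9 CPM. Among the 12 classes Grin3a was highest in OPC, at 503, 378, 441 and 410 CPM. Of the interneuron types the Sst type had the most, at 593, 546, 632 and 616 CPM, above OPC in every library. Grin3b had at most 1.12 CPM as a Control mean in any of the 12 classes. Grid1, the delta receptor gene, was highest in the subicular and deep-layer neurons, at 2113, 2353, 2202 and 2047 CPM.

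Of the metabotropic receptors, the group I gene Grm5 was widespread, with Control means of 3431 CPM in CA1 and 2552 CPM in CA3. The group II gene Grm2 was highest in granule neurons, at 23.5, 28.8, 21.2 and 20.9 CPM. Its group II partner Grm3 was high in glia, at 1258, 1130, 1212 and 1212 CPM in oligodendrocytes and 1134, 974, 1061 and 839 CPM in astrocytes, against a Control mean of 8.69 CPM in CA3. Grm7, a group III receptor of terminals, had Control means of 3666 CPM in subicular, 3596 CPM in mossy and 3254 CPM in CA3 neurons, and of 112 CPM in Lamp5 interneurons. The group III gene Grm8 was restricted: in Control it reached 1552 CPM in the subicular and deep-layer neurons, 1744 CPM in Vip interneurons and 1260 CPM in mossy nuclei, but 17.1 CPM in CA3 and 12.5 CPM in CA2. Grm4 was low outside the subicular class, where it had 69.7, 47.8, 55.2 and 55.1 CPM.

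The AMPA receptor auxiliary genes also marked classes. Cacng4 (TARP gamma-4) was highest in OPC, at 363, 325, 347 and 402 CPM, with inhibitory neurons next at 26.5, 24.9, 26.5 and 27.9 CPM. Cacng5 was highest in CA2, at 51.2, 38, 37.8 and 36.4 CPM, and had a Control mean of 0.321 CPM in CA3. Cacng2 and Cacng3, the genes of stargazin and TARP gamma-3, were highest in mossy nuclei among the 12 classes, with Control means of 149 CPM and 179 CPM, whereas CA2 had 7.07 CPM and 3.46 CPM. Cacng8, the main hippocampal TARP, varied less, with Control means of 264 CPM in granule neurons, 256 CPM in CA1 and 222 CPM in CA3. Cacng7 was highest in inhibitory neurons and Shisa7 in CA1, with Control means of 127 CPM and 87.2 CPM. Cnih2 was highest in microglia, with a Control mean of 56.6 CPM. Free RNA held 91.7 and 90.3 CPM of Cnih2 in Control. Its estimated share of the microglial counts, 39.5% and 44.5% in Control, was too high for Grin2a and Grin2b. The part of free RNA in the Cnih2 level was not tested. The cornichon gene Cnih3 was highest in granule neurons, at 307, 282, 280 and 266 CPM, and had a Control mean of 13.8 CPM in CA3. Among the 12 classes Shisa9, the gene of CKAMP44, was highest in granule neurons too, at 925, 843, 896 and 839 CPM, and was 12.9 CPM in Control mossy nuclei. Shisa6 showed the reverse, with Control means of 2687 CPM in mossy nuclei and 786 CPM in granule neurons, and with 7.31 CPM in Pvalb interneurons. Among the 12 classes Gsg1l was highest in the subicular class, with a Control mean of 103.7 CPM. Of the interneuron types the Pvalb type had the most, at 152, 236, 177 and 199 CPM, above that mean in every library.

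Among the 12 classes Neto1, which slows kainate receptor currents, was highest in CA3, at 953, 855, 986 and 1016 CPM, followed by inhibitory neurons at 679, 749, 686 and 711 CPM. Neto2 was highest in the subicular class, at 327, 342, 332 and 310 CPM. Grip1, the PDZ scaffold of AMPA receptors, was highest in inhibitory neurons, at 6521, 6713, 6750 and 6512 CPM, 4.49-fold over the subicular class. Its gene body overlaps 9 other annotated genes, 3 of them Grip1 antisense transcripts, and whether reads were counted by strand is not given in the sources used here.

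Ratios of the counts of 2 subunits within a library do not depend on depth and show the same contrasts. On the log2 scale the Grin2a to Grin2b ratio had Control means of 0.97 in granule neurons, 0.68 in CA1, 0.51 in CA3, 1.66 in Lamp5 and -3.31 in Pvalb interneurons. The Gria1 to Gria2 ratio was 0.50 in CA1, 0.22 in CA3, 1.33 in Pvalb interneurons and -1.62 in Vip interneurons. The Grik4 to Grik2 ratio was 0.07 in CA2, -0.51 in CA3, -3.17 in CA1 and -4.71 in inhibitory neurons. The 9 ratios were taken in 18 classes, 162 in all. Because the exact two-sided permutation test of 2 against 2 libraries cannot go below p = 0.333, no ratio could pass a threshold of 0.05. At that smallest p stood 58 of the 162, so groups that separate, as in the 2 cases below, were common. In mossy nuclei the log2 ratio of Neto1 to Neto2 was 0.87 and 0.20 in Control, against 1.59 and 1.55 in Kat6a-cKO. In the subicular class it was lower in Kat6a-cKO, at -1.80 and -2.28 in Control, against -3.08 and -2.93. That class mixes subicular and deep-layer neurons and held 141 and 136 nuclei in Control, against 249 and 265 in Kat6a-cKO, and the part of its make-up in the ratio was not tested.

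**Figure D2:**
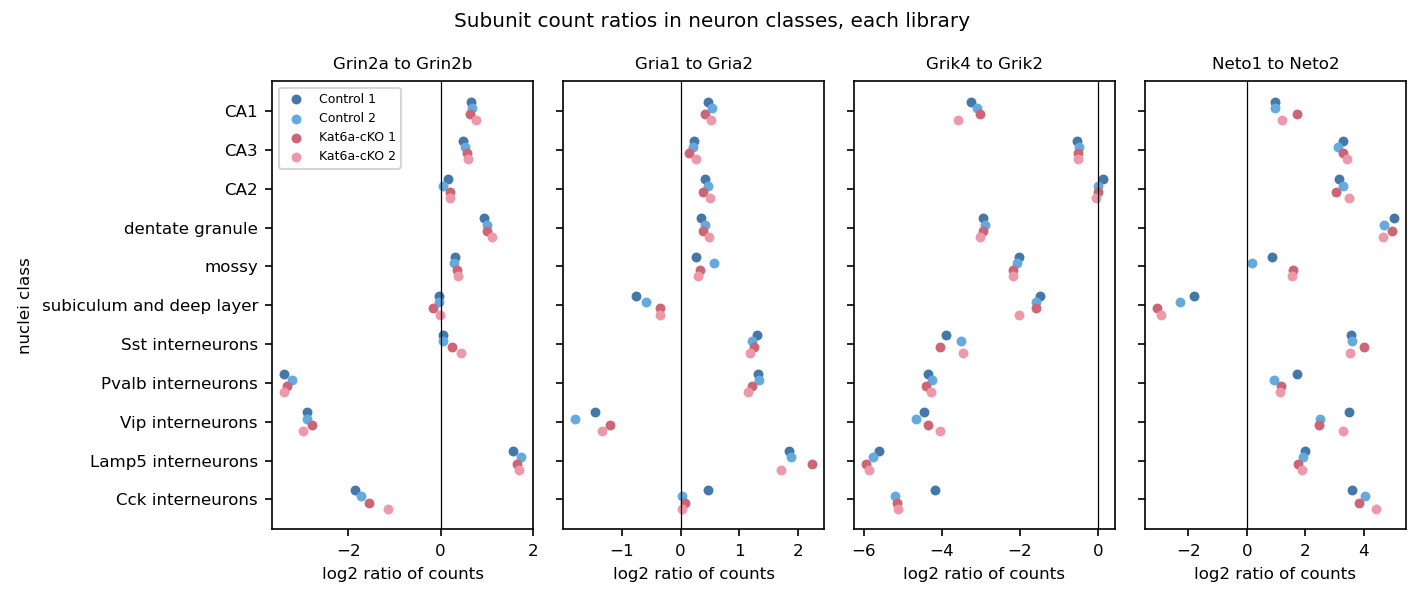
Each panel shows, for 11 neuron classes, the log2 ratio of the summed counts of 2 genes in each of the 4 libraries, with Control in blue and Kat6a-cKO in red. For Grin2a to Grin2b the Control means of the classes range from -3.31 in Pvalb to 1.66 in Lamp5 interneurons; for Neto1 to Neto2 the Kat6a-cKO points lie above the Control points in mossy, CA1 and CA3 nuclei and below them in subicular and Lamp5 nuclei.

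Clusters within a class, formed without these genes, also differed in them; this is a description with no test. In CA3 the main cluster of 2236 nuclei had 1074, 1002, 1155 and 1175 CPM of Neto1, whereas a smaller cluster of 538 nuclei led by Armc4 had 241, 230, 267 and 248 CPM. That cluster had more Gria4, at 365, 360, 413 and 326 CPM against 141, 152, 167 and 157 CPM. In granule neurons, Gsg1l stood at 95.9, 91.8, 99.1 and 90.2 CPM in a cluster of 4123 nuclei with Trpc6 among its leading genes and at 21.1, 16.9, 18.5 and 15.2 CPM in a cluster of 4119 nuclei with Dsp among them. Grm8 followed the same split, with 93.8, 135, 145 and 151 CPM in the first cluster and 12.8, 12.6, 12 and 9.8 CPM in the second. In CA1, the cluster led by Dcn had 136, 128, 204 and 179 CPM of Grm8, and the cluster marked by Prlr had 10.4, 9.2, 11.4 and 7.3 CPM.

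The difference between the Kat6a-cKO and Control libraries was tested on counts summed per library in 10 classes, with edgeR's quasi-likelihood test and Benjamini-Hochberg adjustment over all genes tested in a class. In CA3, 0 of 34 members tested passed an adjusted p of 0.05, where 0.0259% of the 15441 genes tested did. In CA1 it was 0 of 37, where 0.0118% of genes passed, and in granule neurons 0 of 37, where 0.405% passed. Likewise 0 of 29 members passed in CA2 (0.0471% of genes), 0 of 37 in inhibitory neurons (0.0273%), 0 of 33 in astrocytes (0.334%), 0 of 33 in oligodendrocytes (0.00856%), 0 of 32 in OPC (0% of genes) and 0 of 29 in microglia (0.01%). In mossy nuclei, 4 of 28 members passed, 3 higher and 1 lower, where 0.714% of 8958 genes passed, 0.48% higher and 0.234% lower. The median log2 fold change of the members was -0.02 in CA3, 0.05 in CA1 and -0.01 in granule neurons, beside medians over all genes of -0.01, 0.00 and 0.00. At an unadjusted p under 0.05 stood 1 of 34 members in CA3 (7.94% of all genes), 3 of 37 in CA1 (8%), 4 of 37 in granule neurons (9.95%), 3 of 29 in CA2 (6.93%), 2 of 37 in inhibitory neurons (6.56%), 2 of 33 in astrocytes (6.21%), 3 of 33 in oligodendrocytes (7.51%), 7 of 32 in OPC (6.83%) and 8 of 29 in microglia (9.09%). By DESeq2 the count at an adjusted p under 0.05 was 0 in each of these 9 classes except CA1, where it was 2.

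**Figure D3:**
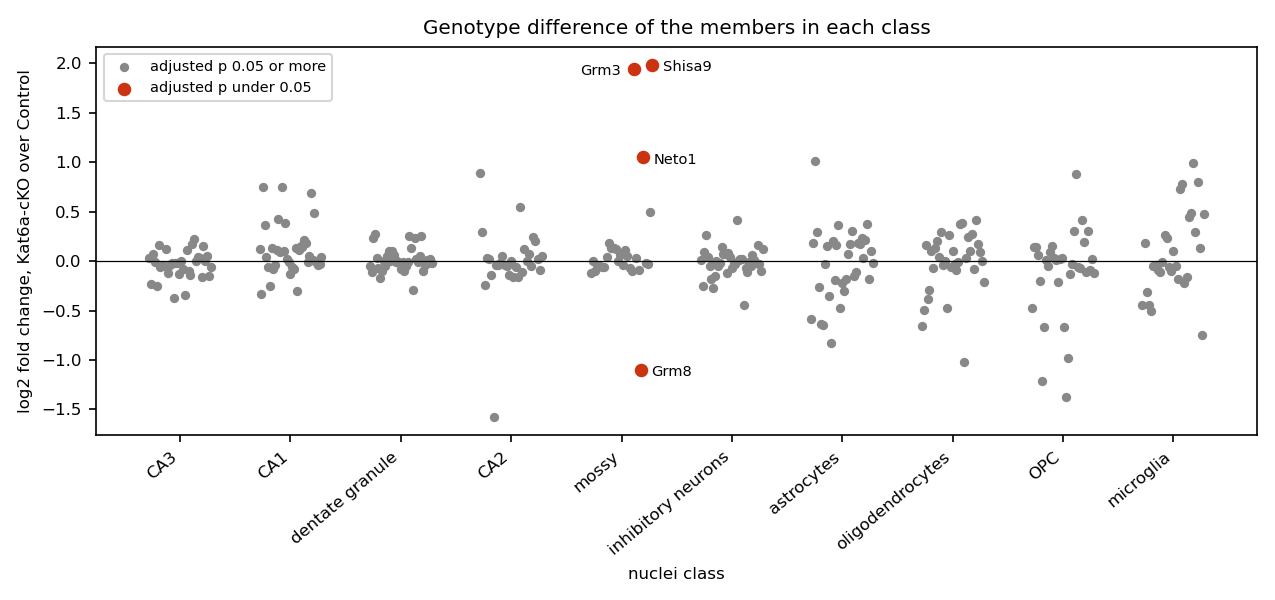
Each point is 1 member in 1 class, and the vertical axis is the log2 fold change of Kat6a-cKO over Control from edgeR. Red points are the 4 members with an adjusted p under 0.05, all in mossy nuclei: Shisa9, Grm3 and Neto1 above 0 and Grm8 below 0.

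Mossy cells are the glutamatergic neurons of the dentate hilus, which receive mossy fibres from granule cells and project back to them along the length of the hippocampus. Of the 4 members, Grm8 fell. Grm8 encodes mGluR8, a group III receptor that dampens release from terminals, and stood at 1355 and 1183 CPM in Control 1 and 2, and at 503 and 682 CPM in Kat6a-cKO 1 and 2, here scaled by TMM. The groups did not overlap, as for 8 of the 28 members tested in this class. The share over all genes of this class is not given here, so that count has nothing to be set against. The log2 fold change of Grm8 was -1.10 ± 0.13 (SE) with an adjusted p of 0.000822 by edgeR.

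Neto1, Grm3 and Shisa9 rose in the same nuclei. Neto1, of which mossy nuclei in Control had less than CA3, stood at 301 and 233 CPM in Control and at 591 and 501 CPM in Kat6a-cKO, a log2 fold change of 1.05 ± 0.14 (SE) with an adjusted p of 0.00133 by edgeR. Grm3, a group II receptor with high levels in oligodendrocytes and astrocytes, stood at 16 and 29.6 CPM in Control and at 82.7 and 103 CPM in Kat6a-cKO, a log2 fold change of 1.94 ± 0.25 (SE) with an adjusted p of 0.00118 by edgeR. Shisa9 stood at 12.8 and 13.1 CPM in Control and at 54.1 and 49.5 CPM in Kat6a-cKO, a log2 fold change of 1.99 ± 0.26 (SE) with an adjusted p of 0.00133 by edgeR. For all 3 genes both Kat6a-cKO libraries lay above both Control libraries, as for 6 of the 28 members tested. Groups of 2 libraries often separate: in CA3, a class with many more nuclei, 37.4% of all genes did so. The share in mossy nuclei is not given here and may differ. The Kat6a-cKO level of Neto1 stayed below that of CA3 and the level of Shisa9 below that of granule neurons.

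**Figure D4:**
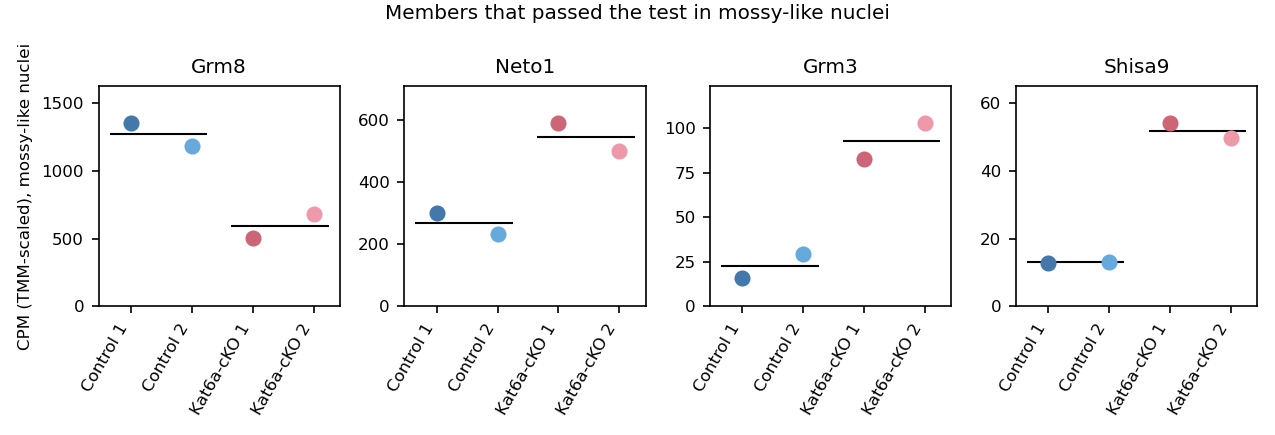
Points are the TMM-scaled CPM of Grm8, Neto1, Grm3 and Shisa9 in the mossy nuclei of each library, and black lines are the means of the 2 libraries of a group; each axis starts at 0. In each panel the 2 groups do not overlap, with Grm8 lower in Kat6a-cKO and the other genes higher.

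The medians of Grm8 and Neto1 over single nuclei differed in the same directions, though single nuclei of the 2 groups overlapped for both genes. The median Grm8 level was 13.6 and 11.6 UMIs per 10000 UMIs of a nucleus in Control, against 3.39 and 6.49 in Kat6a-cKO. The upper quartile of Grm8 in Kat6a-cKO, 7.63 and 9.68, lay below the Control medians. Neto1 had medians of 2.92 and 2.40 in Control, against 4.65 and 4.84 in Kat6a-cKO. The lower quartiles of Neto1 in Kat6a-cKO, 2.86 and 2.70, lay below the median of Control 1 and above that of Control 2. Grm3 had a UMI in 30% of 30 and 39.2% of 51 Control nuclei and in 64% of 50 and 60.8% of 51 Kat6a-cKO nuclei. With each nucleus thinned to 10000 UMIs, which left out 0, 0, 1 and 2 nuclei, these shares were 16.7%, 13.7%, 42.9% and 53.1%. Shisa9 had a UMI in 10%, 13.7%, 32.7% and 34.7% of thinned nuclei. Median depth was 29840.5 and 29574 UMIs in Control, against 25412 and 24340 UMIs in Kat6a-cKO.

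**Figure D5:**
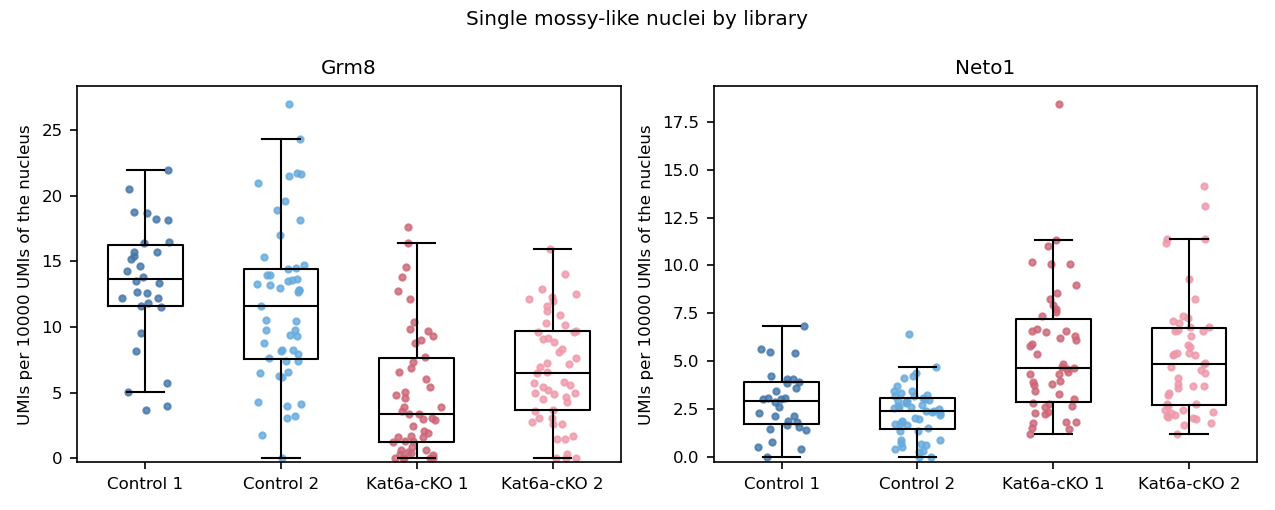
Each point is 1 mossy nucleus, and the vertical axis gives its Grm8 or Neto1 UMIs per 10000 UMIs, by library; boxes show quartiles and medians, and whiskers reach the last point within 1.5 box lengths. Grm8 medians are 13.6 and 11.6 in Control, against 3.39 and 6.49 in Kat6a-cKO, and Neto1 medians are 2.92 and 2.40 against 4.65 and 4.84.

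Markers of other cells were set beside these values. The 7 mossy markers summed to 523 and 547 CPM in Control and to 440.5 and 411 CPM in Kat6a-cKO, and 4 of the 7 were lower in both Kat6a-cKO libraries than in both Control libraries. The 8 CA3 markers, which mossy nuclei share in part, summed to 3445, 3483, 3005 and 3124 CPM in mossy nuclei and to 4044, 4012, 4097 and 4136 CPM in CA3. The 7 CA1 markers summed to 191.7, 231, 144 and 122 CPM in mossy nuclei, lower in both Kat6a-cKO libraries. The 8 granule neuron markers, of the class rich in Shisa9, summed to 24.1, 48.9, 59.9 and 49.4 CPM in mossy nuclei. The 7 astrocyte and the 6 oligodendrocyte markers, of the glia rich in Grm3, summed to 139, 176, 87.2 and 92.6 CPM and to 54.5, 53.5, 51.0 and 37.8 CPM. The astrocyte sum is mostly Gpc5, at 121.5, 159, 65.0 and 60.2 CPM, which was itself called lower in mossy nuclei (log2 fold change of -1.14, adjusted p of 0.00444 by edgeR), and the other 6 astrocyte markers summed to 17.8, 17.2, 22.2 and 32.4 CPM, higher in both Kat6a-cKO libraries. The 7 inhibitory neuron markers summed to 17.8, 29.1, 93.1 and 25.5 CPM, with Dlx1 at 0 in all 4 libraries; the part of these marker differences in the results was not tested. The mitochondrial share of counts in mossy nuclei was 0.0705% and 0.0927% in Control, against 0.0523% and 0.0488% in Kat6a-cKO, and mt-Nd4, mt-Rnr1 and mt-Rnr2 were called lower there by edgeR, with log2 fold changes of -1.06, -0.90 and -0.80. That share was lower in both Kat6a-cKO libraries in 6 of the 12 classes compared, and its part in the mossy results was not tested. Free RNA would give 7.08, 9.90, 8.74 and 4.05 CPM of Shisa9, most of its Control level, and 2.44, 3.23, 3.79 and 1.76 CPM of Grm3. After free RNA was subtracted, the log2 fold changes were 3.42 for Shisa9, 2.05 for Grm3, 1.05 for Neto1 and -1.13 for Grm8, all with an adjusted p under 0.05. Without the mossy nuclei richest in CA3 markers, an alternative added after the data were seen, the log2 fold change of Neto1 was 1.15 and that of Grm8 -1.12. With doublets kept, Shisa9 no longer passed, at a log2 fold change of 1.18 and an adjusted p of 0.0508 by edgeR.

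Whether the genotype difference in mossy nuclei differed from that in the 3 large classes was tested as an interaction with library as a block, also added after the data were seen. All 4 members passed in all 3 comparisons. Against CA3, where 0.461% of genes passed, the difference of log2 fold changes was -1.11 ± 0.17 (SE) for Grm8 and 0.90 ± 0.11 for Neto1. Against CA1 (0.813% of genes) it was -1.76 ± 0.12 for Grm8, and against granule neurons (0.779% of genes) -1.39 ± 0.12. The fits against CA1 and granule neurons gave every gene the same spread at its level, so the very small p-values there do not rest on each gene's own spread. Leaving out a library ended 3 of these calls, Grm8 and Grm3 against CA3 (adjusted p of 0.09 without Control 1 and of 0.0512 without Control 2) and Neto1 against CA1 (adjusted p of 0.524 without Control 2 and of 0.238 without Kat6a-cKO 2), all by edgeR.

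Sequence upstream of a start site was at hand for 24 of the 38 members, among them Grm8 and Grm3, the pair of receptor genes that changed in opposite directions in mossy nuclei. Both are shown for that reason, from RefSeq on build GRCm38.p6, as the 250 bases before an annotated start, with the Sp1-type letters GGGCGG in capitals. The Grm8 window, of the 3 listed starts the one nearest the annotated gene start, is chr6:28135147-28135396 on the minus strand, and the Grm3 window is chr5:9725353-9725602 on the minus strand.
Grm8: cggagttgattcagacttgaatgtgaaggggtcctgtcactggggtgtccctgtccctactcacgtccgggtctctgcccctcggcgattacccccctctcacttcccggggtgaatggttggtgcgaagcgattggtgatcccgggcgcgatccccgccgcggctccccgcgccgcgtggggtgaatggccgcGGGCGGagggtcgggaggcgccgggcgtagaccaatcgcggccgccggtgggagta
Grm3: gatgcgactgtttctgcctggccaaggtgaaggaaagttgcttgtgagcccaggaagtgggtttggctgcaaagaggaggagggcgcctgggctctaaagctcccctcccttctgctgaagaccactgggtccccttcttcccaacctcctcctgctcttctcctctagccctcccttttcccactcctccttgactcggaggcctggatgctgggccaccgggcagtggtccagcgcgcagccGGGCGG
Each window held 1 GGGCGG, searched on both strands, which 32.7% of 32851 such windows hold, and neither held TATAAA, which 12.4% hold. Grm8 had 29 CG dinucleotides in its window and Grm3 had 8, beside a median of 6 over all windows. The windows of the other 2 Grm8 starts had 8 and 2 CG dinucleotides and 0 GGGCGG, so the contrast holds for the window shown only. The 2 genes lie at chr6:27275119-28135178 and chr5:9485541-9725170 on the minus strand, spanning 860.1 and 239.6 kb, and Shisa9 lies at chr16:11984113-12270902 on the plus strand.

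In CA3, the members with the smallest p were Cnih2, Cacng3 and Neto1. Cnih2, a cornichon gene, stood at 25.2 and 27.3 CPM in Control and at 21.4 and 22.7 CPM in Kat6a-cKO, a log2 fold change of -0.25 ± 0.11 (SE) with an adjusted p of 0.597 by edgeR. Cacng3 had a log2 fold change of -0.23 ± 0.11 and Neto1 one of 0.16 ± 0.08, with adjusted p-values of 0.635 and 0.705 by edgeR. The groups did not overlap for any of the 3, as for 12 of the 34 members and 37.4% of all genes in CA3. Neto1 passed without Control 1, at a log2 fold change of 0.27, in a fit that gave every gene the same spread at its level.

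In CA1, Grm8 stood at 66.5 and 55.8 CPM in Control and at 114 and 83.8 CPM in Kat6a-cKO, a log2 fold change of 0.69 ± 0.15 (SE) with an adjusted p of 0.325 by edgeR. Neto1 stood at 129.8 and 129.6 CPM in Control and at 211 and 154 CPM in Kat6a-cKO, a log2 fold change of 0.49 ± 0.14 (SE) with an adjusted p of 0.424 by edgeR. Cnih2 had a log2 fold change of -0.25 ± 0.11 and an adjusted p of 0.618. Thus Grm8 and Neto1 did not pass by edgeR with the filter on low counts, on all 4 libraries and without a block. Without that filter both passed, with adjusted p-values of 4.76e-10 and 9.61e-06, in a fit that gave every gene the same spread at its level. DESeq2 also called both, with adjusted p-values of 0.00164 and 0.0456. Kat6a-cKO 1 was the higher of the 2 Kat6a-cKO libraries for both genes, and without it the log2 fold changes were 0.45 and 0.24. Without Kat6a-cKO 2 they were 0.89 and 0.70, and both passed by edgeR, with adjusted p-values of 0.000405 and 0.000771. Over 13 alternatives Grm8 passed in 4 and Neto1 in 3, each with the same direction in all 13. The 8 CA3 markers summed to 232, 269, 384 and 277 CPM in CA1, also highest in Kat6a-cKO 1, and the part of that in the Neto1 level was not tested. A CA1 cluster with Adam12 among its leading genes was unevenly spread over the libraries. CA1 held 1625, 1920, 1724 and 1923 nuclei with that cluster, and 1554, 1804, 1519 and 1814 without it. A fit without it was among the 13 alternatives. By cluster, Grm8 was higher in both Kat6a-cKO libraries in the CA1 cluster marked by Lrmp, at 43.2, 31.8, 82.6 and 67.4 CPM, and in that led by Dcn, but not in that marked by Prlr, where the groups overlapped.

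In granule neurons the smallest p-values belonged to Grm3, Grm2 and Cacng5. Grm3 stood at 53.4 and 55.1 CPM in Control and at 61.9 and 65.4 CPM in Kat6a-cKO, a log2 fold change of 0.23 ± 0.07 (SE) with an adjusted p of 0.286 by edgeR. Grm2 stood at 23.8 and 28.1 CPM in Control and at 21.6 and 20.8 CPM in Kat6a-cKO, a log2 fold change of -0.29 ± 0.10 with an adjusted p of 0.34 by edgeR. Cacng5 had a log2 fold change of 0.27 ± 0.10 and an adjusted p of 0.405 by edgeR. None of the 3 passed, though for each the groups did not overlap, as for 40% of all genes in this class.

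By edgeR 0 members passed the test of a different genotype effect between CA3 and CA1 (0.0464% of genes did), between CA3 and granule neurons (0.0915%) or between CA1 and granule neurons (0.0166%). At an unadjusted p under 0.05 stood 6 of 36, 4 of 37 and 3 of 37 members, where 5.51%, 5.56% and 6.68% of genes did; DESeq2 was not run on these differences. The closest was Grm8, with a difference of CA3 minus CA1 of -0.65 ± 0.10 (SE) and an adjusted p of 0.0613 by edgeR. It passed without Kat6a-cKO 1 and without Kat6a-cKO 2.

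Across the 10 tested classes, Cnih2 was lower in Kat6a-cKO in all 10, and in 7 of them the groups did not overlap. Of the 7468 genes tested in all 10 classes, 3.45% were so. Neto1 lay above both Control libraries in both Kat6a-cKO libraries in 7 classes, as did 2.46% of those genes. Both were singled out after their values were seen, each the only 1 of 26 members tested in all 10 classes with its pattern, so the member shares are near those over all genes. The classes come from the same 4 libraries and are not independent, and by edgeR with the filter on low counts, on all 4 libraries and without a block, Cnih2 passed in none of the 10 and Neto1 in mossy nuclei; without the filter Neto1 also passed in CA1. Free RNA held 193 and 209 CPM of Neto1 in Control, against 232 and 216 CPM in Kat6a-cKO, and 91.7 and 90.3 CPM of Cnih2 in Control, against 80.7 and 89.7 CPM in Kat6a-cKO.

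In glia the estimated free RNA exceeded the observed level of several members. In microglia, Grin2a stood at 199, 225, 188 and 217 CPM, below the 687, 834, 666 and 563 CPM that the estimated free RNA would give. Grm8 in microglia was likewise below that estimate in every library, and free RNA held 139 and 141 CPM of it in Control, against 215 and 172 CPM in Kat6a-cKO. In OPC the 7 members at an unadjusted p under 0.05 included Grin2a and Grin2b. Grin2a in OPC stood at 98.9 and 417 CPM in Control and at 103 and 92.9 CPM in Kat6a-cKO, so Control 2 stood apart and the groups overlapped, at a log2 fold change of -1.38 and an adjusted p of 0.282 by edgeR. Grin2b showed the same pattern, at 85.9 and 234 CPM in Control, against 90.7 and 67.8 CPM in Kat6a-cKO. In astrocytes, the members at an unadjusted p under 0.05 were Cacng4 and Cnih2, named here after their values were seen, and not Grin2c or Grm3. Of the 36 genes called in astrocytes 35 were lower in Kat6a-cKO, among them Dnah12 and Spag16 of the 6 ependymal and choroid markers. These 6 markers summed to 137, 318, 43.5 and 35.8 CPM in the astrocyte class, with Dnah12 at 30.3, 60.1, 1.22 and 2.06 CPM. At Leiden resolution 2 only 2 genes were called in astrocytes, and the part of these markers in the member values was not tested.

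Other genes of the glutamate synapse were taken as a list of 42, covering postsynaptic scaffolds, receptor assembly and trafficking proteins, pentraxins, glutamate transporters and glutamate metabolism. None passed by edgeR in any of the 10 classes. Between 1 and 7 per class stood at an unadjusted p under 0.05, where 6.21% (astrocytes) to 9.95% (granule neurons) of all genes did. In the main classes 41 were tested in CA3, 41 in CA1, 41 in granule neurons and 34 in mossy nuclei. In granule neurons 7 of the 41 stood at an unadjusted p under 0.05, where 9.95% of genes did, 1 of them higher and 6 lower in Kat6a-cKO. In mossy nuclei it was 6 of the 34, where 9.1% of genes did, 5 of them higher and 1 lower. The median log2 fold change of the 34 in mossy nuclei was 0.06, beside 0.00 over all genes.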

How the data were processed

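Nuclei of 4 libraries were read from the deposited tables of raw UMI counts per gene and barcode. The submitters' processing notes name mm10 and Seurat 4.0.1, and the aligner and counter are not given in the sources used here. The members, gene lists and markers were chosen with earlier results of these data known. Barcodes with at least 5000 UMIs (1000 for glia) were kept, doublets were called with Scrublet at an assumed rate of 0.06 and left out, and nuclei were clustered with scanpy 1.11.5 and leidenalg 0.10.2 (2000 variable genes, 30 components, 15 neighbours, resolution 1), leaving out 122 genes, the members among them. Counts were summed per library and class. The 10 classes set for a test that had at least 30 nuclei in every library were tested with edgeR 4.0.16 in R 4.3.3 (TMM, filterByExpr, quasi-likelihood), with DESeq2 1.42.0 as an alternative and adjusted p-values over all genes tested. The subicular and deep-layer class, the Cajal-Retzius class and the single interneuron types were described by their levels and not tested, and an endothelial class was not analysed here, since no cluster was named so. Differences between classes were fitted with library as a block. Free RNA was taken from barcodes with at most 100 UMIs. Named are all members for levels, members with an adjusted p under 0.05, and the 3 with the smallest p in CA3, CA1 and granule neurons. On simulated counts with 200 genes changed by 1 on the log2 scale, the test in mossy nuclei called 106 of the 188 that passed the filter and 9 unchanged genes; in CA3 it called 146 of 195 and 6 unchanged genes. The simulated counts gave every gene the same spread at its level, which the fits to the real counts in mossy nuclei and CA3 did not. These numbers are therefore not the error rates of the real data. Sequences are from RefSeq, GRCm38.p6.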

Additional observations from a re-analysis of the deposited data

Results flagged for a closer look

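In 12 tests of a different genotype change between mossy nuclei and a large class, the difference passed, with log2 values from edgeR. For Shisa9 the change in mossy nuclei exceeded that in CA3 by 2.07, that in CA1 by 1.97 and that in granule neurons by 1.97. For Grm3 the differences were 1.84, 1.74 and 1.70. For Neto1 they were 0.90, 0.60 and 1.07. For Grm8 they were -1.11, -1.76 and -1.39. These comparisons were added after the change in mossy nuclei had been seen, and all use the same mossy nuclei, so they are not 12 separate results. Of all genes 0.461% passed against CA3, 0.813% against CA1 and 0.779% against granule neurons. The limits given above for these fits and for leaving out a library hold here too.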

How the results depend on the processing

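The 4 calls in mossy nuclei kept their direction under all 14 alternatives, with log2 fold changes of -1.33 to -0.89 for Grm8, 1.64 to 2.53 for Grm3, 0.86 to 1.22 for Neto1 and 1.18 to 3.42 for Shisa9, and only Shisa9 with doublets kept did not pass. In the 4 fits with 1 library left out, the lone library of a group is assumed to vary like the others. Without Control 1, without Control 2, without Kat6a-cKO 1 and without the filter, edgeR gave every gene in mossy nuclei the same spread at its level, and without Kat6a-cKO 2 nearly so (prior df of 211), so those passes do not rest on each gene's own spread. At Leiden resolution 2 the mossy class held the same nuclei, so that alternative adds nothing there. Counts over all genes moved more, and the cause was not tested.
Genes called in CA3 numbered 4, against 28 with DESeq2, 298 without the filter, 1 with free RNA subtracted and 4 to 314 with 1 library left out. In CA1 they numbered 2, against 107 with DESeq2, 557 without the filter, 1 without the Adam12 Hrh3 cluster and 3 to 346 with 1 library left out. In granule neurons they numbered 70, against 204 with DESeq2, 613 without the filter, 15 with free RNA subtracted and 31 to 331. In CA2 they numbered 5, against 16 with DESeq2, 85 without the filter, 2 at resolution 2, 9 at the higher UMI minimum, 8 with doublets kept, 2 with free RNA subtracted and 9 to 64. In mossy nuclei they numbered 64, against 174 without the filter, 111 with doublets kept, 103 without nuclei rich in CA3 markers and 92 to 155. In inhibitory neurons they numbered 4, against 13 with DESeq2, 138 without the filter, 0 with free RNA subtracted and 28 to 134. In astrocytes they numbered 36, against 156 without the filter, 2 at resolution 2, 55 at the higher UMI minimum, 119 with doublets kept, 0 with free RNA subtracted and 2 to 222. In oligodendrocytes the single call became 6 with DESeq2, 123 without the filter, 11 with doublets kept, 0 with free RNA subtracted and 1 to 50. In OPC 0 became 55 without the filter, 31 at the higher UMI minimum, 16 with doublets kept and 15 to 155. In microglia 1 became 0 with DESeq2 size factors, DESeq2, no filter or free RNA subtracted, 5 at the higher UMI minimum, 12 with doublets kept and 9 to 89.
Members called numbered 0 in CA1, against 2 with DESeq2 (Grm8, Neto1), 5 without the filter and 0 to 5 with 1 library left out. Leaving out 1 library gave 0 to 1 members in CA3, granule neurons and CA2, and 0 to 5 in astrocytes and OPC. Without the filter 1 member was called in CA2 and 3 in OPC, and with doublets kept 1 in microglia (Grm8). Without the filter, edgeR gave every gene in CA1, CA2 and OPC the same spread at its level. It did so too in each OPC fit with 1 library left out, and in astrocytes without Control 1 or without Control 2.
For the differences between classes, CA3 minus CA1 went from 8 genes to 189 without the filter and 0 to 139 with 1 library left out, with 3 members and 0 to 5 members. CA3 minus granule neurons went from 16 to 90 and 3 to 210, with 0 to 2 members. CA1 minus granule neurons went from 3 to 5 with DESeq2 size factors, 277 without the filter and 0 to 210, with 4 members without the filter and 0 to 4. Mossy minus CA3 went from 68 to 110 without the filter and 44 to 94, mossy minus CA1 from 140 to 61 to 114, and mossy minus granule neurons from 135 to 55 to 136, with 3 to 4, 3 to 4 and 4 members.
In glia the counts with free RNA subtracted rest on an estimate that was too high for several members. It exceeded the observed level in every library for Grin2a, Grin2b, Grm8 and Grm3 in OPC and microglia. The same held for Neto1 and Shisa9 in microglia but not in OPC. Such values are not given here for astrocytes and oligodendrocytes.
Nothing in the labels pairs same-numbered libraries, and the correlations of their deviations were 0.00175 to 0.287 over 10 classes. With the replicate block the genes called numbered 196 in CA3, 99 in CA1, 278 in granule neurons, 120 in CA2, 108 in astrocytes, 47 in inhibitory neurons, 29 in microglia, 51 in OPC and 320 in oligodendrocytes, and members called numbered 1 in CA1 (Grm8, log2 fold change of 0.68, adjusted p of 0.0108 by edgeR), 1 in CA2 (Cnih3), 2 in OPC (Grin2a, Grin2b) and 4 in mossy nuclei. With the block, edgeR gave every gene in CA2 and in oligodendrocytes the same spread at its level, and in OPC nearly so (prior df of 144). Those calls do not rest on each gene's own spread. The count over all genes with the block is not given here for mossy nuclei. The mossy class held 30 to 51 nuclei per library.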
